A study of Homo sapiens with 16 samples.

Results

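Expression of 10 genes that are widely used to tell epithelial from mesenchymal cells was read in 16 RNA-seq libraries of 2 human cancer cell lines. They were taken by symbol from the count table, 10 of its 26485 genes. The 6 epithelial genes are CDH1 (E-cadherin), EPCAM and the keratins KRT7, KRT8, KRT18 and KRT19, and the 4 mesenchymal genes are VIM (vimentin), CDH2 (N-cadherin), ZEB1 and SNAI2 (Slug). PC3 cells derive from a prostate cancer and HeyA8 cells from an ovarian cancer. In each line, cells were mock-treated or transfected with 1 nM of siNT1 (the nontoxic control siRNA), siGGGGGC (named after the 6mer seed of its guide strand) or siCAG, and RNA was collected after 24 or 48 h. The dose is that of the labels, and the study's methods give a higher one for its RNA-seq. The sample titles name the siGGGGGC libraries siMxy and the siNT1 libraries siNT, and the treatment labels were followed here. Each line, treatment and time point gave 1 library, so the 24 and 48 h libraries served as the 2 replicates of a treatment, and every SD below contains the difference between the time points. The study's methods describe separate wells for the 24 and 48 h harvests, and nothing says that these were independent cultures, so the p-values measure the spread between these libraries, which may be technical. No allele or genetic change was introduced in either line, and each line stands for a single tumor. The PC3 libraries held from 27937092 to 29971612 counted reads, and the HeyA8 libraries from 29128446 to 31790209.

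Epithelial cells hold together through E-cadherin at adherens junctions and fill their cytoplasm with filaments of paired keratins, KRT8 with KRT18 in simple epithelia. In an epithelial-mesenchymal transition, transcription factors such as ZEB1 and SNAI2 repress CDH1 by binding E-boxes in its promoter, and cells gain N-cadherin and vimentin, the intermediate filament of mesenchymal cells. Many cancer cell lines express genes of both sets.

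Repeats of the letters in the name siCAG were read from 1 transcript per gene (MANE Select, GENCODE v44, hg38). CDH1 was the gene with the longest uninterrupted run of CTG, the reverse complement of CAG, with 5 repeats, where the other 9 genes had at most 2. A run of at least 5 occurs in 1.17% of 19061 transcripts. The run lies in exon 1 of CDH1, in the coding sequence. It is shown with 3 bases on either side, at chr16:68737443-68737463 on the plus strand, as the longest such run among the 10 genes, with the run in capitals.

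CDH1 CTG run: gcgCTGCTGCTGCTGCTGcag

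Such a run is a description of the transcript, not evidence of binding, and its relation to expression was not tested. The full sequence of siCAG was not used here. The E-box letters CAGGTG, which begin with CAG and on the opposite strand end with CTG, were looked for on both strands of the RefSeq promoters (GRCh38.p14, 250 bases before to 50 bases after a start), where 20.6% of 35116 windows hold them. Windows of KRT8, VIM, CDH2 and ZEB1 were matched, and the letters were found in windows of ZEB1, at 4 positions in 2 windows, and in none of the windows of KRT8, VIM and CDH2. More windows were matched for ZEB1 than for KRT8, VIM or CDH2, most of them without the letters, so these finds do not set ZEB1 apart. CDH1, EPCAM, KRT7, KRT18, KRT19 and SNAI2 were not matched.

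The labelled tissues were checked against marker genes. PC3 cells expressed HOXB13, a prostate transcription factor, at a mean of 230 counts scaled to library size (CPM), and TMPRSS2 at 23.4 CPM, whereas KLK3 and KLK2 had 0 counts in all 8 libraries. HeyA8 cells expressed PAX8 at a mean of 159 CPM, MSLN at 30.7 CPM and WT1 at 13.9 CPM, whereas MUC16 reached at most 0.173 CPM. Of 8 listed prostate markers, 3 reached 1 CPM in PC3 and 2 in HeyA8 cells, and of 8 ovarian markers, 3 did so in each line, with WT1 at 9.83 CPM in PC3 cells. The prostate list summed to a median of 263 CPM in PC3 libraries and to between 3.91 and 6.19 CPM in HeyA8 libraries, and the ovarian list to 15.7 and 214 CPM. The 8 haematopoietic markers summed to a median of 24.8 CPM in PC3 and 57.8 CPM in HeyA8 libraries, and CD68 was the only gene among them with a mean of at least 1 CPM, while CD3E had 0 counts in both lines. The endothelial list summed to a median of 12.5 and 316 CPM, led in HeyA8 cells by TIE1 with 358 CPM, while VWF stood at 0.388 CPM there. The fibroblast list summed to 317 and 17.6 CPM, led in PC3 cells by COL6A3 with 310 CPM, while DCN stood at 0.00760 CPM. Their part in the results below was not tested.

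The first comparison asked how the lines differ without siRNA, using the mock-treated cells. PC3 cells expressed CDH1, EPCAM and KRT19, which were near 0 in HeyA8 cells, and HeyA8 cells expressed more VIM, ZEB1, KRT8 and KRT18. CDH2, KRT7 and SNAI2 were not called. In all, 7 of the 10 genes were called at an adjusted p under 0.05 (edgeR's quasi-likelihood test, Benjamini-Hochberg adjustment over all genes tested), where 45.5% of 15887 genes were called. The median of the 10 genes was -0.068 on the log2 scale, and that of all genes tested was 0.089. CDH1 entered this test only through its counts in PC3 cells, so its call is a description.

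**Figure D1:**
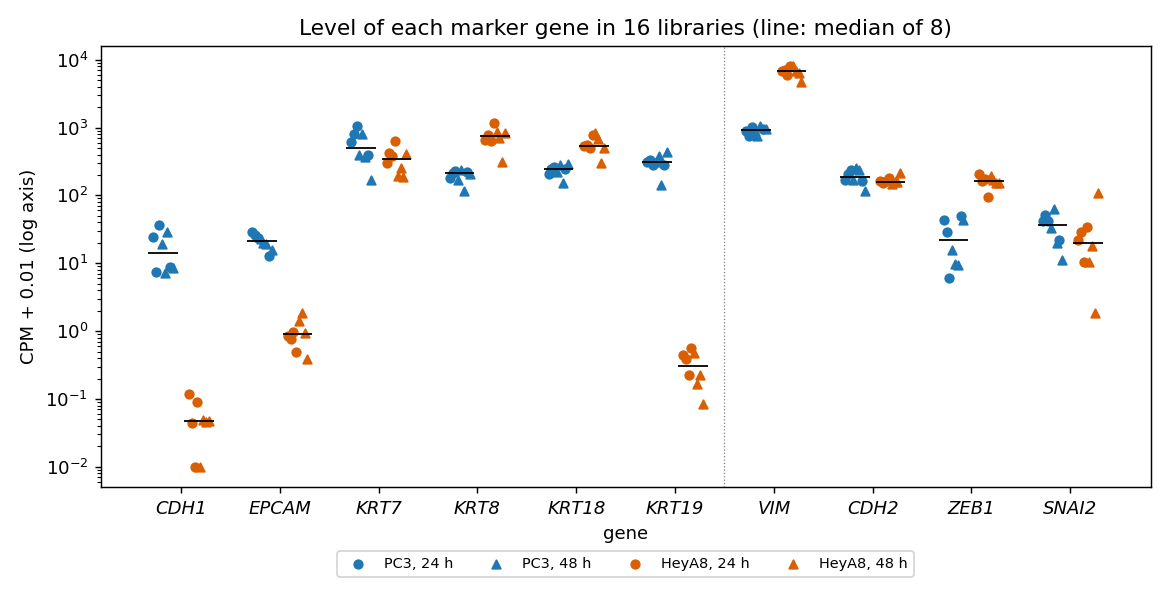
Level of each gene in CPM (y axis, log scale, 0.01 added so that 0 can be drawn) in the 8 PC3 and the 8 HeyA8 libraries, with circles for 24 h, triangles for 48 h and a bar at the median of 8. The PC3 and HeyA8 libraries do not overlap for CDH1, EPCAM, KRT8, KRT18, KRT19, VIM and ZEB1, and they overlap for KRT7, CDH2 and SNAI2.

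CDH1 (chr16:68737292-68835541, plus strand) measured 8.84 CPM at 24 h and 8.46 CPM at 48 h in mock-treated PC3 cells, from 288 counts each. In mock-treated HeyA8 cells it had 3 counts at 24 h and 0 counts at 48 h. Over the mock libraries the ratio was 159 (95% interval from 54.2 to 774, exact binomial, counting error only). The log2 fold change was 6.96 (standard error 0.65, edgeR adjusted p = 1.2e-05), and 11.16 without the HeyA8 library of 24 h, which holds all 3 counts. CDH1 passed the filter on low counts through PC3 cells and not within HeyA8 cells. It therefore had to differ, and its call is a description. Over all 8 HeyA8 libraries CDH1 stayed between 0 and 3 counts, at or below the floor of 3 counts (0.120 CPM in the smallest library), so no level can be stated there. EPCAM, a surface glycoprotein of epithelia, measured 12.9 and 15.8 CPM in mock-treated PC3 cells and 0.833 and 1.38 CPM in HeyA8 cells. Its log2 fold change was 4.09 (standard error 0.40, edgeR adjusted p = 1.8e-05).

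The 4 keratins split. KRT19, the shortest type I keratin, measured 285 and 439 CPM in mock-treated PC3 cells and 0.434 and 0.471 CPM in HeyA8 cells, a log2 fold change of 9.26 (standard error 0.68, edgeR adjusted p = 2.5e-06). KRT8 measured 223 and 206 CPM in PC3 cells and 664 and 853 CPM in HeyA8 cells, a log2 fold change of -1.89 (standard error 0.38, edgeR adjusted p = 0.0021). Its partner KRT18 measured 248 and 287 CPM in PC3 cells and 528 and 830 CPM in HeyA8 cells, a log2 fold change of -1.37 (standard error 0.40, edgeR adjusted p = 0.016). HeyA8 cells thus expressed more of both keratins of the simple-epithelial pair while KRT19 was near 0. KRT7 measured 389 and 169 CPM in PC3 cells and 304 and 195 CPM in HeyA8 cells, and the time points within a line lay farther apart than the lines (log2 fold change 0.13, standard error 0.33). KRT8 and KRT18 are uncertain: they overlap by 996 bases in the coordinates of the count table, on opposite strands of chromosome 12, the strand setting of the counting is not given, and the annotation names 51 pseudogenes of KRT8 and 68 of KRT18.

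Among the mesenchymal genes, VIM (chr10:17228259-17237593, plus strand) measured 959 and 940 CPM in mock-treated PC3 cells and 6894 and 8077 CPM in HeyA8 cells. Its log2 fold change was -3.04 (standard error 0.25, edgeR adjusted p = 5.9e-06), and by CPM it ranked 3 among all genes in HeyA8 cells and 71 in PC3 cells. ZEB1 (chr10:31319172-31529814, plus strand), a zinc-finger repressor of CDH1, measured 49.9 and 43.7 CPM in PC3 cells and 210 and 191 CPM in HeyA8 cells. Its log2 fold change was -1.70 (standard error 0.51, edgeR adjusted p = 0.018). CDH2 measured 165 and 115 CPM in PC3 cells and 163 and 149 CPM in HeyA8 cells, so N-cadherin was expressed in PC3 and HeyA8 cells, with overlapping libraries (log2 fold change -0.11, standard error 0.23). SNAI2 measured 21.8 and 11.2 CPM in PC3 cells and 22.3 and 10.4 CPM in HeyA8 cells. Its log2 fold change was -0.026 (standard error 0.73). The call for KRT18 was lost without the PC3 library of 24 h (edgeR adjusted p = 0.16) or the HeyA8 library of 48 h (0.081), and that for ZEB1 without the PC3 (0.20) or HeyA8 (0.14) library of 24 h.

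**Figure D2:**
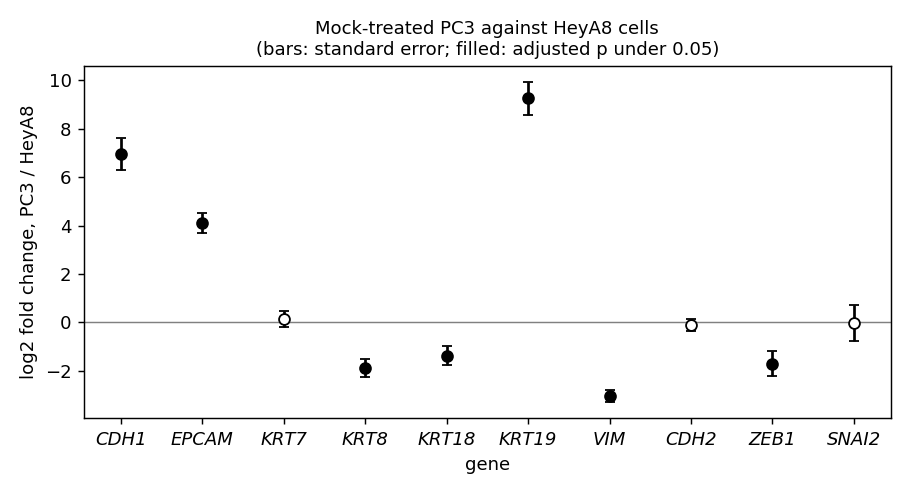
log2 fold change of mock-treated PC3 against HeyA8 cells (y axis) for the 10 genes, with the standard error as bars and filled points where the adjusted p was under 0.05. CDH1, EPCAM and KRT19 lie above 0, KRT8, KRT18, VIM and ZEB1 lie below 0, and KRT7, CDH2 and SNAI2 lie near 0.

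Levels of different genes were compared per kb of the deposited gene length, as the mean over the 8 libraries of a line. In PC3 cells VIM was highest with 425 CPM per kb, followed by KRT7 with 337, KRT19 with 211, KRT18 with 82.5, KRT8 with 25.7, CDH2 with 23.6, SNAI2 with 16.8, EPCAM with 12.4, CDH1 with 3.64 and ZEB1 with 0.716 CPM per kb. Neighbours in this order overlapped in their ranges, except KRT18 and KRT8, EPCAM and CDH1, and CDH1 and ZEB1. In HeyA8 cells VIM was again highest with 3150 CPM per kb, followed by KRT7 with 205, KRT18 with 202, KRT8 with 97.6, CDH2 with 20.3, SNAI2 with 13.9, ZEB1 with 4.47, EPCAM with 0.552 and KRT19 with 0.213 CPM per kb, and CDH1 was at or below its floor. The neighbours that overlapped there were KRT7 and KRT18, KRT18 and KRT8, CDH2 and SNAI2, SNAI2 and ZEB1, and EPCAM and KRT19. The deposited lengths of KRT8 (7634 bases), ZEB1 (36227 bases), CDH2 (8190 bases) and KRT18 (2888 bases) are far longer than their MANE Select transcripts (1784, 5937, 4016 and 1413 bases). Their values per kb are therefore low, and their places in the order, such as KRT7 above KRT18 and KRT8 in HeyA8 cells, depend on the length used. By this measure N-cadherin transcripts were above E-cadherin transcripts in PC3 cells.

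The wider programs were described with lists of related genes, chosen like the 10 genes with earlier results of these data known. A gene entered this comparison when either line expressed it, so a gene near 0 in 1 line had to differ. All 30 junction genes, 28 of the 30 regulators and surface genes, 13 of the 21 other keratins and 27 of the 30 mesenchymal genes were tested here, whereas 21, 12, 5 and 25 of them passed the filter within HeyA8 cells and 30, 28, 13 and 23 within PC3 cells. The counts of these lists are therefore given as a description. Over all genes 45.5% were called, 3159 lower and 4075 higher. Leaving out 1 mock library gave from 1696 to 2481 lower and from 2233 to 3406 higher genes. Of the 30 epithelial junction genes, 18 were higher and 5 lower in PC3 cells (76.7% called, median log2 fold change 2.29, against 0.089 over all genes). The desmosomal JUP measured 43.3 and 63.7 CPM in PC3 cells against 1 count in both HeyA8 libraries together. The claudins CLDN4 and CLDN3, at most 0.217 and 0.290 CPM in mock-treated HeyA8 cells, had log2 fold changes of 10.11 and 7.19. LLGL2, a polarity gene, had one of 4.31. In the other direction, CTNNA1, which links E-cadherin to actin, measured 2.12 and 2.09 CPM in PC3 cells and 618 and 670 CPM in HeyA8 cells (log2 fold change -8.36, standard error 0.36, edgeR adjusted p = 3.3e-07). CLDN1 and PVRL2 were lower in PC3 cells as well, with log2 fold changes of -1.85 and -0.93. The line with E-cadherin transcripts had few alpha-catenin transcripts, and the other line had many.

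Of 28 tested epithelial regulators and surface genes, 20 were higher and 2 lower in PC3 cells (78.6% called). ELF3, an epithelial transcription factor, measured 18.9 and 25.8 CPM against 1 count in HeyA8 cells, and MAL2, a gene of apical transport, measured 816 and 1053 CPM against 0.471 and 0.0362 CPM. SPINT1, a protease inhibitor, and ESRP2, an epithelial splicing factor, had log2 fold changes of 9.81 and 7.58 (standard errors 0.97 and 0.36). Each had at most 0.145 CPM in mock-treated HeyA8 cells. AP1M2 was lower in PC3 cells with -6.22. Of 13 tested other keratins, 7 were higher and 0 lower, 53.8% called and near the 45.5% of all genes. KRT81, a hair keratin, measured 1814 and 1273 CPM in PC3 cells and 1.56 and 0.797 CPM in HeyA8 cells, and KRT75 measured 23.2 and 22.6 CPM where both HeyA8 libraries had 0 counts, at least 421-fold higher (floor of 3 counts over the group). KRT86 and KRT80 had log2 fold changes of 5.98 and 1.32. Without the HeyA8 mock library of 24 h, 2 other keratins were called higher, 2 junction genes lower and 12 higher, and 14 epithelial regulators and surface genes higher.

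Of 27 tested mesenchymal structure and surface genes, 17 were lower and 4 higher in PC3 cells (77.8% called, median log2 fold change -2.27). NCAM1, CDH4, TGFBI and ENG were lower, with CDH4 at 0.0921 and 0.0588 CPM in PC3 cells and 61.6 and 87.7 CPM in HeyA8 cells. TGFBI, a matrix protein, and ENG, a TGF-beta co-receptor, had log2 fold changes of -8.94 and -5.73, and NCAM1 had 2 counts in PC3 and 855 in HeyA8 mock libraries. The 4 genes that went the other way included CDH11, a mesenchymal cadherin, with 293 and 275 CPM in PC3 cells against 2 counts in HeyA8 cells, NES, an intermediate filament, with a log2 fold change of 6.84, and S100A4 with 5.21. CDH6, with 7.95, was named after its value was seen. Without the HeyA8 mock library of 24 h, 2 genes of this list were higher. Of 18 tested EMT transcription factors and co-repressors, 6 were lower and 2 higher (median -0.24), a share of 44.4% called, near the 45.5% of all genes. Leaving out any 1 of the 4 mock libraries gave 4 to 6 lower and 1 higher, and the 4 mock libraries fitted alone gave 9 lower and 4 higher. ZEB2, the paralog of ZEB1, measured 1.26 and 0.558 CPM in PC3 cells and 50.9 and 43.2 CPM in HeyA8 cells, and TWIST2, CTBP2 and HDAC2 had log2 fold changes of -3.89, -1.27 and -0.72. SOX9 was higher with 3.30. Of the 12 genes of TGF-beta signalling, 3 were lower and 4 higher (median 0.22, 58.3% called): the receptors TGFBR2 and TGFBR3 were lower with -1.50 and -1.86, and SMAD3, SMAD6 and TGFB2 were higher with 3.03, 7.62 and 5.90.

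**Figure D3:**
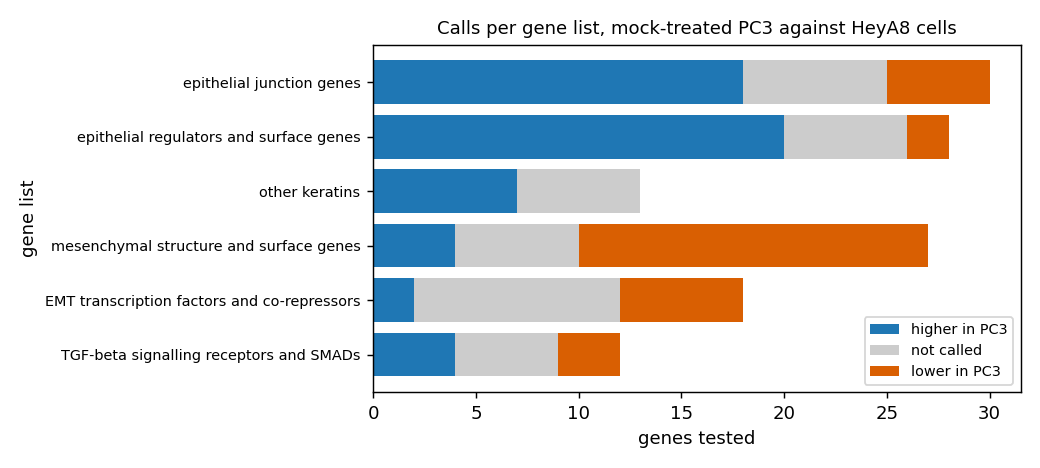
Number of tested genes (x axis) of each list that were higher, not called or lower in mock-treated PC3 against HeyA8 cells at an adjusted p under 0.05. Higher genes are most of both epithelial lists (18 of 30 and 20 of 28), and lower genes are most of the mesenchymal list (17 of 27).

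Over the 16 libraries, the genes whose log2(CPM + 1) was most like that of CDH1 were TFAP2A, HOXA11 and FUCA1 (Pearson's r = 0.99, 0.98 and 0.98 over 16 libraries, as a description), those most like VIM were STAT5B, TRPV2 and TMBIM1 (each 0.99), and those most like ZEB1 were APC, TTC37 and ATR (each 0.99). These values contain the difference between the lines. Within the 8 PC3 libraries the likeness to CDH1 was 0.88 for TFAP2A, 0.74 for HOXA11 and 0.76 for FUCA1. The likeness to VIM was 0.37 for TRPV2 and 0.87 for TMBIM1, while STAT5B had 0 counts in PC3 cells, and the likeness to ZEB1 was 0.97 for APC, 0.99 for TTC37 and 0.97 for ATR. Within the 8 HeyA8 libraries the likeness to ZEB1 was 0.92, 0.76 and 0.95, and that to VIM was 0.83 for STAT5B, 0.61 for TRPV2 and 0.50 for TMBIM1. For CDH1, with 0 to 3 counts in each HeyA8 library, it was -0.45 for TFAP2A and 0.076 for FUCA1, and HOXA11 had 0 counts.

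The next comparisons set siNT1 against mock. The labels do not say whether mock-treated cells received transfection reagent, so effects of the siNT1 duplex and of transfection cannot be told apart. In PC3 cells CDH1 rose, from 8.65 ± 0.27 CPM (SD, n = 2) in mock-treated cells to 21.9 ± 3.4 CPM after siNT1. The libraries of 24 and 48 h measured 24.2 and 19.5 CPM after siNT1 and 8.84 and 8.46 CPM in mock-treated cells, so the groups did not overlap. The log2 fold change was 1.34 (standard error 0.18, edgeR adjusted p = 0.042). It was 1 of the 35 genes called, 0.231% of 15136 tested, and edgeR called 0 genes overall when any 1 of the 4 libraries was left out. Leaving out any of the 4 libraries kept the log2 fold change between 1.24 and 1.44 but lost the call (adjusted p of 0.40 to 0.49), as did a fit with no term for time (0.093). SNAI2, a repressor of CDH1, measured 42.0 and 32.7 CPM after siNT1 and 21.8 and 11.2 CPM in mock-treated cells, a log2 fold change of 1.24 (standard error 0.30, edgeR adjusted p = 0.23, unadjusted 0.0036). DESeq2 called SNAI2 as well (adjusted p = 0.012). EPCAM (0.84) and KRT7 (0.94) also had unadjusted p-values under 0.05 without passing the adjustment, and the other 6 genes lay between -0.77 (ZEB1) and 0.28 (CDH2).

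In the same comparison, 4 of 28 epithelial regulators and surface genes rose and 0 fell (14.3% called, against 0.231% of all genes, median log2 fold change 0.60, against -0.0064). ST14, the membrane protease matriptase, measured 15.8 and 13.8 CPM after siNT1 and 2.33 and 1.76 CPM in mock-treated cells, and ESRP1, a splicing factor of epithelial cells, measured 13.6 and 15.1 CPM and 2.06 and 2.70 CPM. Their log2 fold changes were 2.87 and 2.60 (edgeR adjusted p = 0.0083 and 0.023). OVOL1 and AP1M2, named after their values were seen, had 3.33 and 2.99. None of the 4 calls was kept when any 1 of the 4 libraries was left out. None of the genes of the other 5 lists was called (0 of 30 junction genes, 0 of 13 keratins, 0 of 23 mesenchymal genes, 0 of 17 EMT factors and 0 of 12 TGF-beta genes). In HeyA8 cells edgeR called 0% of 13872 genes between siNT1 and mock, with 177 at an unadjusted p under 0.05 and 1 by DESeq2, and 0 of the 9 members tested. CDH1 was left out of all tests within HeyA8 cells for its low counts.

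**Figure D4:**
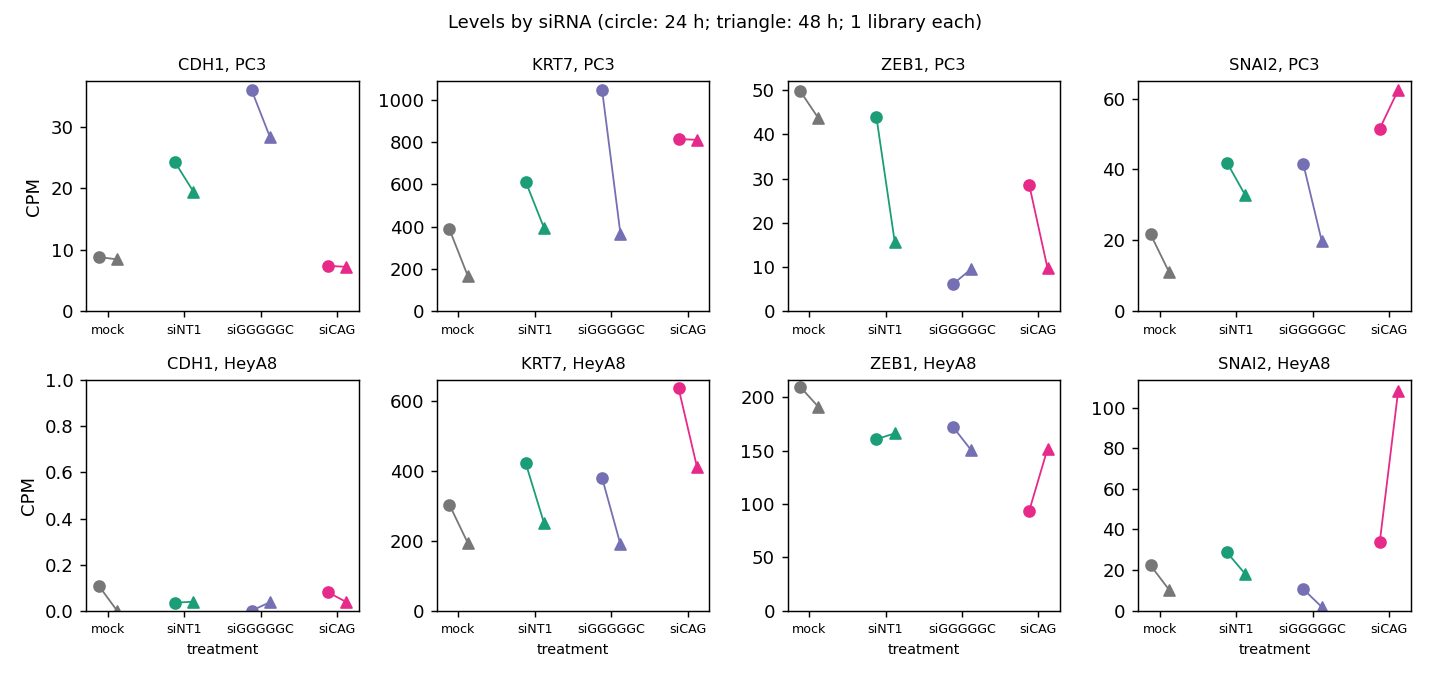
CPM (y axes, each from 0) of CDH1, KRT7, ZEB1 and SNAI2 in PC3 (top) and HeyA8 cells (bottom) by treatment (x axis), with a circle for 24 h joined to a triangle for 48 h, 1 library each. In PC3 cells CDH1 is higher after siNT1 and siGGGGGC than in mock-treated and siCAG-transfected cells, and ZEB1 is lowest after siGGGGGC at 24 h (6.12 CPM).

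After siGGGGGC, which the study examines for its toxicity, none of the 10 genes was called against siNT1 in PC3 cells, where 9.67% of 15136 genes were called (908 lower and 555 higher). In all, 3 members had an unadjusted p under 0.05, and the median log2 fold change of the 10 was -0.0996, against 0.0029 over all genes. ZEB1 measured 6.12 and 9.55 CPM after siGGGGGC and 44.02 and 15.8 CPM after siNT1. The groups did not overlap, but the siNT1 libraries differed more from each other than those of siGGGGGC did. The log2 fold change was -1.74 (standard error 0.52, edgeR adjusted p = 0.071). Leaving out 1 library moved it between -2.75 and -0.97, and ZEB1 was called without the siGGGGGC library of 48 h (adjusted p = 0.041). CDH1 measured 36.0 and 28.4 CPM after siGGGGGC and 24.2 and 19.5 CPM after siNT1, again without overlap, a log2 fold change of 0.54 (standard error 0.18, edgeR adjusted p = 0.085). CDH2 measured 238 and 235 CPM after siGGGGGC against 168 and 168 CPM after siNT1, a log2 fold change of 0.47 (standard error 0.19, edgeR adjusted p = 0.14). DESeq2 called CDH1 (adjusted p = 0.042) and ZEB1 (0.0038).

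With mock-treated cells as the control, 4 of the 10 genes were called after siGGGGGC in PC3 cells, where 21.1% of genes were called. CDH1 rose (log2 fold change 1.87, standard error 0.18, edgeR adjusted p = 0.0042), KRT7 rose (1.28, standard error 0.31, adjusted p = 0.028), CDH2 rose (0.74, standard error 0.19, adjusted p = 0.033) and ZEB1 fell (-2.51, standard error 0.52, adjusted p = 0.018). The KRT7 groups overlapped, with 1044 and 365 CPM after siGGGGGC and 389 and 169 CPM in mock-treated cells. These comparisons share their siGGGGGC libraries with those against siNT1. They also contain the difference between siNT1 and mock, with log2 fold changes of 1.34 for CDH1, 0.94 for KRT7, 0.28 for CDH2 and -0.77 for ZEB1. ZEB1 has a long deposited length, and the values of long genes varied beside it. The median of the tenth of genes with the longest deposited length, less that of the tenth with the shortest, was lowest in the PC3 library of siGGGGGC at 24 h (-0.25 on the log2 scale, relative to the mean of the line), the library with the lowest ZEB1. In HeyA8 cells it was lowest after siCAG at 24 h (-0.49), the library with the lowest ZEB1 of that line (93.4 CPM). Relative to the mean of the line, the PC3 library of mock at 24 h was highest in both (0.18, with ZEB1 at 1.26), those of siNT1 at 24 h and mock at 48 h had 0.092 and 0.091 (ZEB1 at 1.08 and 1.07), and those of siCAG and siGGGGGC at 48 h had -0.12 and -0.16 (ZEB1 at -0.98 and -1.01). In PC3 cells siNT1 at 48 h had 0.064 with ZEB1 at -0.34, and in HeyA8 cells siCAG at 48 h was highest (0.22) with ZEB1 at -0.062. The part of gene length or RNA quality in the ZEB1 values was not tested.

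The keratins of simple epithelia had lower values at 48 h than at 24 h after siGGGGGC in PC3 cells. KRT8 measured 225 CPM at 24 h and 114 CPM at 48 h, KRT18 measured 258 and 154 CPM, and KRT19 measured 280 and 144 CPM. The 48 h library was the lowest of the 8 PC3 libraries for all 3 keratins. In HeyA8 cells the 48 h library of siGGGGGC was likewise the lowest of 8 for KRT8 (306 CPM) and KRT18 (296 CPM). These are single libraries without an error, and over both time points KRT8, KRT18 and KRT19 had log2 fold changes of -0.095, -0.10 and -0.60 in PC3 cells, none called. Without the 24 h library of siGGGGGC, KRT8, KRT18 and KRT19 had log2 fold changes of -0.61, -0.58 and -1.28 in PC3 cells. These values restate the same 48 h library and are no further evidence. In the fit to all 8 PC3 libraries, the remaining members, EPCAM, KRT7, VIM and SNAI2, lay between -0.37 and 0.34.

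Of the lists, 5 of 30 junction genes fell and 3 rose after siGGGGGC in PC3 cells (26.7% called, against 9.67% of all genes, median log2 fold change -0.19). PVRL1, a nectin, measured 29.6 and 17.0 CPM after siGGGGGC against 68.0 and 81.0 CPM after siNT1, and JUP, CLDN4 and the desmocollin DSC3 had log2 fold changes of -1.51, -1.26 and -1.14. CGN (cingulin), CTNNB1 (beta-catenin) and CLDN1 rose with 0.95, 0.74 and 0.68. Of 28 epithelial regulators and surface genes, 3 fell and 0 rose, among them MAL2 (-1.41) and KLF5 (-0.79), and EHF (-1.12), named after its value was seen. Of 23 mesenchymal genes, 2 fell, among them the receptor kinase AXL (-1.77), and FSTL1 rose (1.19). The 13 other keratins and the 17 EMT factors gave 0 calls, and 1 of 12 TGF-beta genes rose, SMAD7 (2.004), named after its value was seen. The shares called of the regulators (10.7%), mesenchymal genes (13%) and TGF-beta genes (8.33%) were near that of all genes. When the siNT1 library of 24 h or that of 48 h was left out, edgeR called 0 genes of any list and 0 genes overall. Without the siGGGGGC library of 24 h it called 2111 lower and 1591 higher genes, among them 7 junction genes, 8 regulators and 5 mesenchymal genes lower and 4 TGF-beta genes higher.

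In HeyA8 cells siGGGGGC gave 0 calls among the 9 members tested, where edgeR called 0% of 13872 genes (1352 at an unadjusted p under 0.05, and by DESeq2 263 lower and 55 higher). SNAI2 measured 10.5 and 1.85 CPM after siGGGGGC and 28.7 and 18.01 CPM after siNT1, without overlap. Its log2 fold change was -2.09 (standard error 0.87, edgeR adjusted p = 0.51, unadjusted 0.049), and it rests on 298 and 51 counts after siGGGGGC. Leaving out 1 library moved it between -3.68 (without siGGGGGC at 24 h) and -1.19 (without siGGGGGC at 48 h). With the 4 libraries of siGGGGGC and siNT1 alone, edgeR called 3 members, SNAI2, KRT8 and KRT18, all lower (-2.31, -0.79 and -0.70), in a fit with 1 residual degree of freedom. The other 6 members lay between -0.41 (EPCAM) and 0.036 (CDH2) in the fit to all 8 libraries.

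After siCAG in PC3 cells, CDH1 was the 1 member called against siNT1, where 1.20% of 15136 genes were called (176 lower and 6 higher, or 30 to 114 lower and 0 to 11 higher when 1 library was left out). It measured 7.41 and 7.24 CPM after siCAG and 24.2 and 19.5 CPM after siNT1, so the groups did not overlap and the siCAG libraries were nearly equal. The log2 fold change was -1.60 (standard error 0.18, edgeR adjusted p = 0.0066), lower at both time points. Leaving out any of the 4 libraries kept it between -1.69 and -1.50 but moved the adjusted p to between 0.063 and 0.10. Against mock-treated cells, CDH1 was not called after siCAG (log2 fold change -0.26, standard error 0.18, edgeR adjusted p = 0.46), where the mock libraries measured 8.84 and 8.46 CPM. Against mock, KRT7 (1.69, standard error 0.32, adjusted p = 0.039) and SNAI2 (1.88, standard error 0.31, adjusted p = 0.025) rose after siCAG, and 2.58% of genes were called in that comparison. SNAI2 measured 51.5 and 62.4 CPM and KRT7 813 and 810 CPM after siCAG. Both siCAG libraries were above the other 6 PC3 libraries for SNAI2. Against siNT1 the members other than CDH1 lay between -0.67 (ZEB1) and 0.75 (KRT7).

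VIM was lower at both time points after siCAG, with 758 and 752 CPM against 890 and 886 CPM after siNT1, the 2 lowest values of the line, and its log2 fold change was -0.26 (standard error 0.13, edgeR adjusted p = 0.43). EPCAM measured 26.5 and 19.9 CPM after siCAG, 28.9 and 22.9 CPM after siNT1, and 23.9 and 18.9 CPM after siGGGGGC, all above both mock libraries (12.9 and 15.8 CPM). ZEB1 measured 28.65 CPM at 24 h and 9.77 CPM at 48 h after siCAG, and like the siNT1 libraries these fell on both sides of the line's median of 22.2 CPM. VIM is the member that varied least in PC3 cells, with a highest value 1.39 times the lowest, and SNAI2 in HeyA8 cells varied most of the genes with more than 50 counts per library, by 58.6 times.

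Of the lists, siCAG lowered the nectins PVRL2 (log2 fold change -2.80, standard error 0.22) and PVRL1 (-1.56) among 30 junction genes of PC3 cells, and CDS1 (-1.06) among 28 epithelial regulators and surface genes. FSTL1 rose (1.33) among 23 mesenchymal genes and SPARC, named after its value was seen, fell (-1.43). None of the 13 keratins, 17 EMT factors and 12 TGF-beta genes was called. Over all genes 1.20% were called. The calls of CDS1 and SPARC were lost when any 1 of the 4 libraries was left out, 0 or 1 mesenchymal gene was called higher, and 1 or 2 junction genes were called lower.

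In HeyA8 cells, 0 of the 9 members tested were called after siCAG against siNT1, where 7.81% of 13872 genes were called (684 lower and 399 higher). Leaving out 1 of the 4 libraries moved these counts from 42 to 3119 lower and from 0 to 2022 higher. Of the 9, 2 members had an unadjusted p under 0.05. EPCAM measured 0.479 and 0.376 CPM after siCAG and 0.761 and 1.86 CPM after siNT1, from 10 to 48 counts. The log2 fold change was -1.65 (standard error 0.54, edgeR adjusted p = 0.10). KRT7 measured 638 and 413 CPM after siCAG and 422 and 251 CPM after siNT1, higher at both time points but with overlapping groups, a log2 fold change of 0.53 (standard error 0.21, edgeR adjusted p = 0.15). Against mock-treated cells KRT7 was called (0.95, standard error 0.21, adjusted p = 0.044), in a comparison with 8.97% of genes called. SNAI2 measured 33.8 CPM at 24 h and 108 CPM at 48 h after siCAG, the latter the highest of all 16 libraries. Its log2 fold change against siNT1 was 1.73 (standard error 0.87), and without the 48 h library it was -0.31. Without the siCAG library of 24 h, the log2 fold changes were 2.79 for SNAI2, -2.13 for EPCAM, 0.65 for KRT7 and -0.71 for VIM. Without that of 48 h, ZEB1 had -1.05. These values rest on a single siCAG library. In the fit to all libraries of the line, DESeq2 did not call any of the 9 members.

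Of the lists in HeyA8 cells, PVRL2 measured 22.6 and 14.1 CPM after siCAG against 122 and 122 CPM after siNT1, and it fell by 2.89 on the log2 scale. It was 1 of 2 that fell among 21 junction genes tested. TGFB1, a ligand that can induce the transition, fell by 3.04 on the log2 scale among 12 TGF-beta genes, and the chromatin repressors EZH2 and HDAC2 fell by 2.33 and 1.39 among 18 EMT factors. MMP14, a membrane protease, MYL9 and TAGLN rose by 1.31, 1.28 and 1.27 among 25 mesenchymal genes, where MMP14 measured 1870 and 1368 CPM after siCAG against 654 and 528 CPM after siNT1. None of the 12 epithelial regulators and 5 other keratins tested was called. The shares called of the junction (9.52%), mesenchymal (12%), EMT factor (11.1%) and TGF-beta genes (8.33%) were near the 7.81% of all genes. Leaving out 1 of the 4 libraries gave from 0 to 13 mesenchymal genes higher, and from 0 to 6 junction, 0 to 7 EMT factor and 0 to 6 TGF-beta genes lower. The low ends came from leaving out a siNT1 library and the high ends from leaving out a siCAG library. PVRL2 was lower after siCAG in both lines, each against its own siNT1 libraries.

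**Figure D5:**
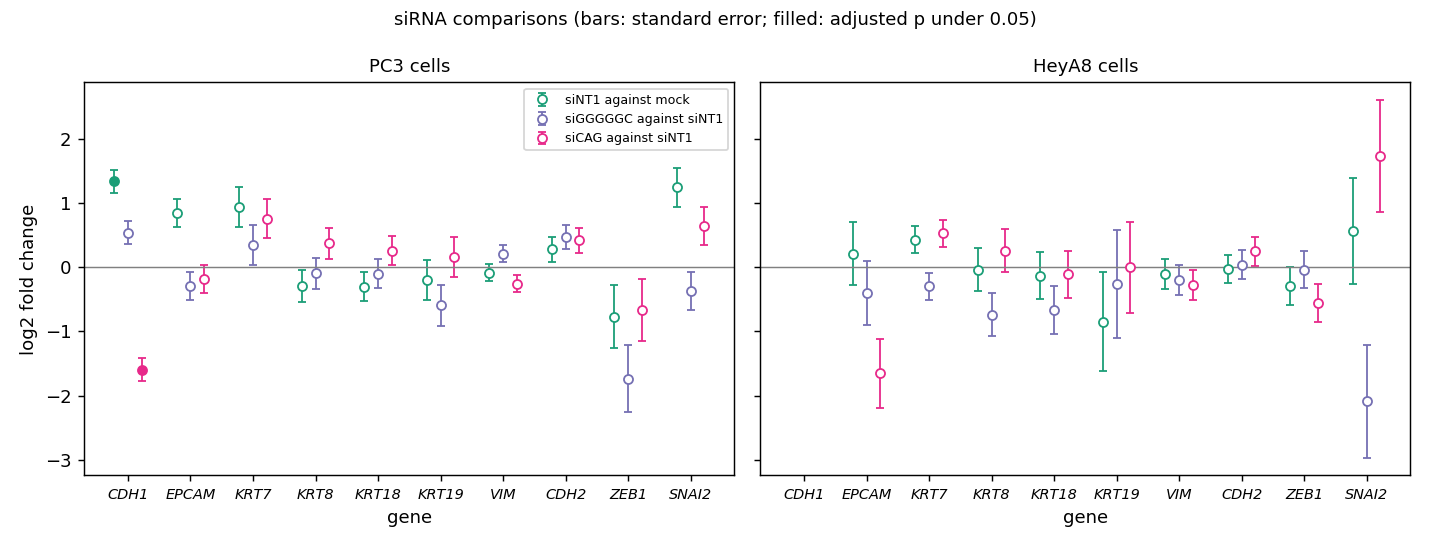
log2 fold change (y axis) of each gene (x axis) for siNT1 against mock, siGGGGGC against siNT1 and siCAG against siNT1 in PC3 (left) and HeyA8 cells (right), with the standard error as bars and filled points where the adjusted p was under 0.05. CDH1 in PC3 cells holds the only filled points, at 1.34 for siNT1 against mock and -1.60 for siCAG against siNT1, and CDH1 was not tested in HeyA8 cells.

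An interaction term in the fit to the 16 libraries tested whether the lines responded differently. For siGGGGGC, edgeR called 0% of 15887 genes (1054 at an unadjusted p under 0.05, and by DESeq2 12 lower and 7 higher) and 0 of the 10 members. The difference between the responses was -1.70 for ZEB1 (standard error 0.64, unadjusted p = 0.023 and edgeR adjusted p = 0.73) and 1.71 for SNAI2 (standard error 0.97, edgeR adjusted p = 0.82). For siCAG, 0.636% of 15887 genes were called (40 lower and 61 higher) and again 0 members. Leaving out 1 library gave 0 to 730 lower and 1 to 790 higher genes, and the 8 libraries of the compared conditions alone gave 0 and 0. EPCAM had a difference of 1.38 (standard error 0.52, unadjusted p = 0.022 and edgeR adjusted p = 0.26). The responses of the members to either siRNA were thus not shown to differ between PC3 and HeyA8 cells. For CDH1 this test says little, since the counts in HeyA8 cells are at the floor.

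Between 48 and 24 h, 0 members were called in either line. Over all genes, 0.0264% of 15136 were called in PC3 cells and 0% of 13872 in HeyA8 cells. In HeyA8 cells 879 genes had an unadjusted p under 0.05, and DESeq2 called 33 lower and 28 higher. With mock and siNT1 libraries alone, edgeR called 899 lower and 692 higher genes there, among them KRT7 (-0.69), SNAI2 (-0.87) and KRT18 (0.49). KRT7 had the smallest unadjusted p among the members in both lines. It was lower at 48 h than at 24 h in all 8 pairs of libraries, by a log2 fold change of -0.86 in PC3 cells (standard error 0.22, edgeR adjusted p = 0.28). The value for HeyA8 cells was -0.72 (standard error 0.15, edgeR adjusted p = 0.72), and DESeq2 called KRT7 in each (adjusted p = 0.025 and 0.023). The pairs differed in size, from 813 and 810 CPM after siCAG to 1044 and 365 CPM after siGGGGGC in PC3 cells. None of the list genes was called between the time points or in the interactions.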

How the data were processed

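Total RNA of PC3 and HeyA8 cells was sequenced in 16 libraries, 1 per line, treatment and time point. Per the submitters' processing notes and the study's methods, the authors aligned reads to hg38 with STAR and counted reads over exons with HTSeq; the strand setting is not given in the sources used here. The deposited table holds raw whole-number counts of 26485 genes by symbol, with no normalization, and its gene lengths. Groups were taken from the treatment labels, which say siGGGGGC where the sample titles say siMxy. CPM values used TMM factors over 16 libraries. Counts were tested with edgeR 4.0.16 (limma 3.58.1, R 4.3.3; filterByExpr, TMM, quasi-likelihood F-test, Benjamini-Hochberg adjusted p under 0.05), within a line with a term for time over 8 libraries, and over 16 libraries, with time within line, for the lines and interactions. Replicate numbers were tied to the time points by the labels. Named genes were the 10 markers, per list and direction up to 4 called genes of the largest change with at least 10 CPM in the higher group, and the 3 genes most like CDH1, VIM and ZEB1 (mean of at least 10 CPM). The 10 genes, lists and tests were chosen with earlier results of these data known. DESeq2 1.42.0, RLE factors, 2 other filters, no term for time, mock as control, fits to fewer libraries and leaving out each library were tried. Some named genes and sites are not reported here. The code was tested on simulated data. Intervals and the floor of 3 counts cover counting error only.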

Additional observations from a re-analysis of the deposited data

How the results depend on the processing

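Of 1226 values of the 10 genes under the alternatives, 1082 kept their direction and side of the threshold, 14 lost the call, 38 gained it and 92 changed sign. Of the 91 values of genes called as reported, 0 changed sign. One value that changed sign was called, KRT18 in HeyA8 cells at 48 against 24 h with mock and siNT1 libraries alone (0.49). The alternatives changed how many of the 10 genes were called as follows, and the causes were not tested. DESeq2 called 2 after siGGGGGC and 2 after siNT1 in PC3 cells, and 1 between the time points in each line. With no filter on low counts, 1 was called after siGGGGGC in PC3 cells. With mock as the control, 4 were called after siGGGGGC and 2 after siCAG in PC3 cells, and 1 after siCAG in HeyA8 cells. In fits to the 4 libraries compared, 6 were called after siCAG and 3 after siNT1 in PC3 cells, and 3 after siGGGGGC and 3 after siNT1 in HeyA8 cells. Each such fit has 1 residual degree of freedom. Over all genes these fits called 1624 lower and 722 higher after siCAG and 97 and 156 after siNT1 in PC3 cells. In HeyA8 cells they called 769 and 411 after siGGGGGC and 671 and 903 after siNT1. With mock and siNT1 libraries alone, 3 were called between the time points in HeyA8 cells. Over all genes, that fit called 899 lower and 692 higher.

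Leaving out 1 library gave 0 to 3 calls after siGGGGGC, 0 to 0 after siCAG and 0 to 0 after siNT1 in PC3 cells, 0 to 4 after siCAG in HeyA8 cells, 0 to 1 in the siCAG interaction and 5 to 7 between the lines. The lone library left in its group was assumed to vary like the other groups. Genes near 0 crossed it: between the lines SNAI2 ranged from -0.41 to 0.42, KRT7 from -0.18 to 0.30 and CDH2 from -0.50 to 0.10. SNAI2 after siCAG in HeyA8 cells ranged from -0.31 to 2.79, its siCAG interaction from -2.25 to 0.79, and the siGGGGGC interaction of CDH1 from -0.33 to 4.37. SNAI2 between the lines was 0.0080 in the 4 mock libraries alone, a fit with 1 time term for both lines.

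The replicate number is the time point, so the term for time is the replicate block. Between treatments, the 48 against 24 h differences correlated with r from -0.074 to 0.75 in PC3 cells (4 of 6 pairs over 0.1) and from -0.087 to 0.60 in HeyA8 cells (5 of 6). Without the block, 0 of the 10 genes were called for siNT1 in PC3 cells, where CDH1 had 1.35 (edgeR adjusted p = 0.093), and SNAI2 between the lines was 0.0092.

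Over all genes, DESeq2 called 1703 lower and 1156 higher after siGGGGGC and 458 and 114 after siCAG in PC3 cells, 93 and 173 after siNT1, and in HeyA8 cells 263 and 55 after siGGGGGC and 1513 and 1152 after siCAG. It called 121 and 98 between the time points in PC3 cells, 33 and 28 in HeyA8 cells, and 332 and 339 in the siCAG interaction. Without the block, 448 and 177 were called after siGGGGGC in PC3 cells. In fits to 4 libraries the counts after siGGGGGC were 363 and 75 for PC3 against 769 and 411 for HeyA8, those after siCAG were 1624 and 722 against 432 and 148, and those after siNT1 were 97 and 156 against 671 and 903. Between the lines, the 4 mock libraries alone gave 5377 lower genes.

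CDH1, EPCAM and KRT19 rest on few counts in HeyA8 cells, which limits their ratios. The same holds for list genes near 0 in a line, among them CLDN3, CLDN4, SPINT1, ESRP2, SMAD6 and KRT86 in HeyA8 cells and TGFBI in PC3 cells.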
